A study of Mus musculus with 24 samples.

Results

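Pou5f1 encodes Oct4, the POU-domain transcription factor that marks the pluripotent cells of the mouse embryo. Its row was read in every embryo of the series, 1 gene of 37229 in the deposited count table and 1 of 15625 in the deposited TPM table (transcripts scaled to a fixed total, a level per gene length). All 24 ICR mouse embryos were conceived by in vitro fertilization and sequenced one by one with Smart-seq2, which copies poly(A) RNA into full-length cDNA. Control embryos were left whole: 4 at the 8-cell stage, 5 morulae and 3 blastocysts. Split embryos came from late 2-cell embryos whose blastomeres were parted by micromanipulation in a biopsy medium, after which each blastomere grew alone in a modified sodium hyaluronate gel. They comprised 6 morulae and 6 blastocysts, in 3 sister pairs per stage. The labels said that control embryos were cultured under matched conditions and did not say whether the biopsy medium and the gel were part of these, so separation, medium and gel cannot be told apart here. Each library is a whole embryo, in which fewer cells of a type and less RNA per cell cannot be told apart, and a split embryo starts from 1 blastomere.

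Oct4 binds DNA through an octamer motif, often next to Sox2, and together with Sox2 and Nanog keeps the genes of pluripotency active. In the early mouse embryo the gene is on in all cells of the morula, and at the blastocyst it is held in the inner cell mass and shut down in the trophectoderm, the outer layer that builds the placenta. Transcription of Pou5f1 is controlled by nuclear receptors such as Nr5a2 and by Sp1 and related factors at its promoter, and the Cdx2 and Eomes proteins of the trophectoderm oppose it.

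The promoter on which these regulators act is printed to show the short motifs they recognise. It is the 250 bases before the RefSeq start of Pou5f1, chr17:35505782-35506031 on the + strand of GRCm38.p6, 1 of 2 starts in the RefSeq table, and it was not measured in these libraries. Capitals mark a GC box (GGGCGG, the letters of Sp1 sites) that starts 45 bases before the start of the gene, and a nuclear receptor half-site (AGGTCA) that starts 33 bases before it.
Pou5f1 promoter: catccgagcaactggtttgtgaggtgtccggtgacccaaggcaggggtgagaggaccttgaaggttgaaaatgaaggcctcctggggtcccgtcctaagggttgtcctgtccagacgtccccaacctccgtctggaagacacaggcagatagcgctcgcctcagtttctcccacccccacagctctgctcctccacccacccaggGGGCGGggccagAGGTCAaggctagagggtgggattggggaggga
Both motifs were matched on the + strand after a search of both strands, and they do not overlap. Of 32851 RefSeq promoters of this length, 32.7% held the GC box and 14.0% the half-site. A TATA box (TATAAA, in 12.4% of promoters) and the octamer ATGCAAAT (in 1.60%) were not among these letters. The window had 62% G and C, against a median of 52.4% over the promoters.

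Pou5f1 was low in control embryos and high in split embryos. The levels below are CPM (counts scaled to a fixed library total, with edgeR's TMM factors). In the control 8-cell embryos the levels were 8.68, 0.505, 2.21 and 14.97 CPM, from 294, 14, 53 and 444 counts. These 4 embryos spanned 29.6-fold, the widest spread of any group, and the second of them held so few counts that the exact 95% interval of its level ran from 0.276 to 0.848 CPM (counting error only). The control morulae were at 18.3, 7.55, 15.3, 21.4 and 18.6 CPM. Morula 2 stood below the other 4, and 4 of the 5 morulae were above every 8-cell embryo. The control blastocysts were at 6.92, 4.25 and 10.8 CPM, which overlapped the 8-cell range and, through morula 2 alone, the morula range.

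The split embryos all lay above these. In the split morulae, Pou5f1 was at 36.3 and 99.99 CPM in the sisters of pair 1, at 58.8 and 80.0 CPM in pair 2 and at 30.5 and 53.5 CPM in pair 3. In the split blastocysts it was at 47.9 and 36.6 CPM in pair 1, at 26.8 and 97.9 CPM in pair 2 and at 72.0 and 69.9 CPM in pair 3. The lowest split embryo (26.8 CPM) was 1.25 times the highest control embryo (21.4 CPM). The 2 split groups overlapped each other over most of their range. Among the 15625 genes of the TPM table, Pou5f1 stood between percentiles 34.6 and 77.2 in control embryos and between percentiles 79.5 and 90.9 in split embryos.

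**Figure D1:**
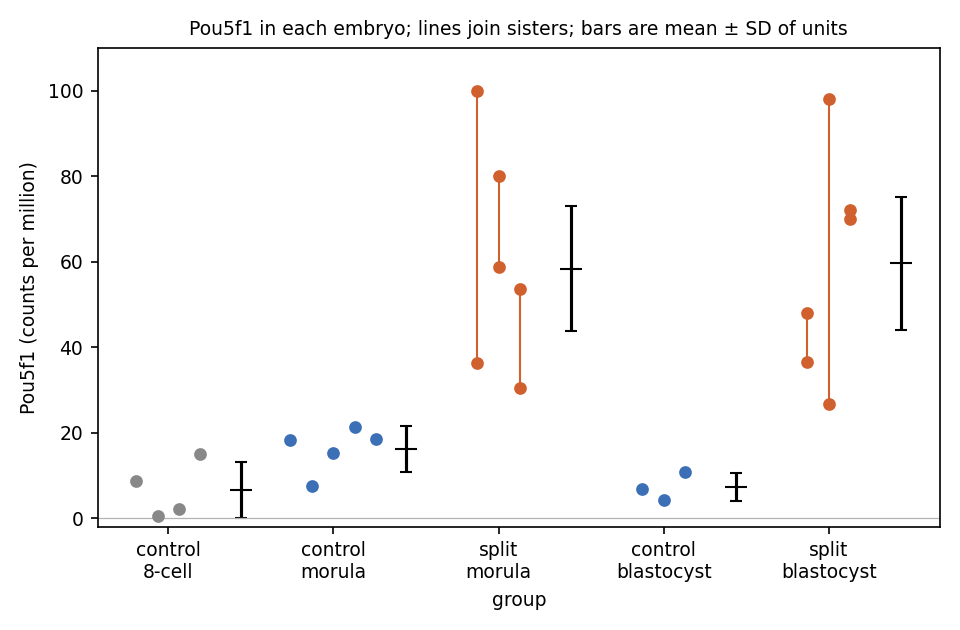
Pou5f1 level (CPM, linear axis) in each of the 24 embryos by group; each point is 1 embryo, lines join the sisters of a split pair, and black bars give the mean ± SD over control embryos or pairs. All 12 split embryos lie at or above 26.8 CPM and all 12 control embryos at or below 21.4 CPM.

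For all fitted values the counts of the 2 sisters of a pair were summed, because they come from the same 2-cell embryo, which left 18 units. Over units, the mean level was 6.59 ± 6.60 CPM (SD, n = 4) in control 8-cell embryos, 16.2 ± 5.31 CPM (n = 5) in control morulae and 7.32 ± 3.29 CPM (n = 3) in control blastocysts. It was 58.3 ± 14.6 CPM (n = 3 pairs) in split morulae and 59.7 ± 15.5 CPM (n = 3 pairs) in split blastocysts. In order of level, the split groups came first, with a difference between them far inside their SD, then the control morulae, then the control blastocysts and 8-cell embryos, which also lay within each other's SD. Per gene length the order at the top was the same, at 68.6 ± 19.4 TPM in split blastocysts and 67.9 ± 16.2 TPM in split morulae, against 16.4 ± 5.49, 10.3 ± 5.21 and 6.56 ± 6.89 TPM in control morulae, blastocysts and 8-cell embryos.

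Pou5f1 was picked for this pattern, so its differences are given without a test. The fitted log2 difference (± standard error) was 1.30 ± 0.61 from control 8-cell embryos to control morulae and -1.15 ± 0.67 from control morulae to control blastocysts. The first was 2.09 without control 8-cell embryo 4 and 0.91 without embryo 2, and the second was -0.64 with limma on log2(TPM + 1). Split morulae minus control morulae gave 1.85 ± 0.63, which is 3.59-fold. Split blastocysts minus control blastocysts gave 3.02 ± 0.78, which is 8.14-fold. The step from morula to blastocyst was 0.03 ± 0.72 in split embryos. The split difference was 1.18 ± 0.97 larger at the blastocyst than at the morula. It was 0.65 ± 0.89 larger with limma on log2(TPM + 1), and 1.15 ± 0.58 larger in a fit of only the groups compared. Among these fits, the gap was well above its standard error only in the last.

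For scale, a larger fitted difference was found for 1499 of the 15875 genes tested (9.44%) at the morula and for 782 genes (4.93%) at the blastocyst. Every split embryo was above every control embryo, whatever the stage, in 12 genes (0.0756%): Pou5f1, Adrm1, Ciapin1, Cldn4, Eef1g, Phb, Ppil2, Psmd13, Psmd4, Tmed9, Uqcrc1 and Wdr18. Adrm1, Psmd4 and Psmd13 are proteasome subunits, Cldn4 is a tight junction claudin and Uqcrc1 belongs to respiratory complex III. In another 12 genes (0.0756%) every split embryo was below every control embryo. Within a stage the separation was commoner: all split morulae were above all control morulae in 107 genes (0.674%), all split blastocysts above all control blastocysts in 1468 (9.25%), and both held in 45 (0.283%). The names were chosen by the same values that chose Pou5f1, so these counts are a description.

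Library measures differed between split and control embryos as well. Total counts ran from 11.3 M to 38.5 M per library, with the 8-cell embryos deepest. Mitochondrially encoded transcripts made up 1.81 to 3.19% of counts in split morulae and 0.841 to 2.34% in split blastocysts, against 2.70 to 5.06% and 3.47 to 4.85% in the controls of these stages. At an equal depth of 11.3 M counts, 10094 to 11939 genes were found in split morulae and 12387 to 13263 in control morulae, and 12301 to 14054 against 14026 to 15510 at the blastocyst. Markers of cumulus and granulosa cells, which surround the egg, summed to at most 2.11 CPM in any embryo, with 7 to 10 of 11 at 0 in each group. Blood and immune markers summed to at most 36.4 CPM in all groups but the split morulae, where they ran from 2.19 to 118 CPM. Fibroblast and feeder cell markers summed to 1.16 to 39.8 CPM in split and 36.0 to 52.5 CPM in control blastocysts, and to 0.159 to 33.3 CPM against 0.821 to 11.8 CPM at the morula. Sperm and spermatid markers summed to 16.9 to 48.7 CPM in split and 44.9 to 51.3 CPM in control blastocysts, and to 5.91 to 34.5 CPM against 14.4 to 27.9 CPM at the morula. The part of these measures in the level of Pou5f1 was not tested.

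Sisters were not measurably closer to each other in Pou5f1 than to other split embryos of their stage. Blastomere 2 was higher than blastomere 1 in all 3 split morula pairs, by 2.75-, 1.36- and 1.76-fold. In the split blastocysts blastomere 2 was higher in 1 pair, by 3.66-fold, and blastomere 1 in the other 2, by 1.31- and 1.03-fold. The mean absolute log2 difference was 0.84 within pairs and 0.83 over all 225 ways to pair the split embryos within their stages, which gave p = 0.52 in an exact one-sided permutation test for closer sisters (smallest possible p 0.00444, 3 pairs per stage). A likeness of sisters in Pou5f1 was thus not detectable with 6 pairs. In 6 of 6 pairs the sister with more Pou5f1 had the lower mitochondrial share, for example 0.841% against 2.34% in split blastocyst pair 2 and 1.81% against 2.91% in split morula pair 3. It had more genes at equal depth in 4 of the 6 and more total counts in 1 of the 6. In the control blastocysts the order was likewise inverse, from 10.8 CPM at 3.47% to 4.25 CPM at 4.85%, whereas the control morula with the most Pou5f1 (21.4 CPM) also had the highest mitochondrial share of its group (5.06%). These shares were looked at after the Pou5f1 values were known.

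The reads assigned to Pou5f1 were checked for other sources. The deposited counts and TPM together imply a gene length of 2248 bases, equal to the union of exons of its 6 transcripts in GENCODE M21. The same held within 1% for 98.6% of 5111 genes whose length could be derived. The main transcript, Pou5f1-201, has 5 exons and 1362 bases, of which 291 (21.4%) are shared with exons of Gm19553, a gene on the opposite strand. Whether strand was used in counting is not given in the sources used here, so reads of Pou5f1 and Gm19553 cannot be told apart in this stretch. Gm19553 had 0 counts in all 24 embryos, which allows at most 0.0885 to 0.231 CPM per library in its own row and does not bound its reads in the shared stretch. RefSeq lists 7 pseudogenes of Pou5f1, none with a row in the count table, and how reads with several matches were counted is not given either.

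The genes next to Pou5f1 on chromosome 17 were low or did not pass a test. Of all genes, 0.126% passed between split and control morulae and 4.74% between split and control blastocysts. Of the 3 neighbours on each side by RefSeq order, H2-Q7, H2-Q10, Tcf19 and Cchcr1 were tested. None of these passed between split and control embryos in edgeR's quasi-likelihood test (Benjamini-Hochberg adjusted p of 0.45 or more). Cchcr1, the most abundant of them, was at 26.5 ± 15.2 CPM in control morulae (n = 5) and 16.4 ± 11.3 CPM in split morulae (n = 3 pairs). It was at 15.1 ± 7.57 CPM in control blastocysts and 6.26 ± 2.88 CPM in split blastocysts (n = 3 each). H2-Q7, H2-Q10 and Tcf19 averaged at most 3.53 CPM in every group.

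Among the core pluripotency factors, Pou5f1 changed its place. Ranked by mean TPM with 18 others (Sox2, Nanog, Sall4, Klf and Dppa genes among them), it was 16th of 19 in control 8-cell embryos, 15th in control morulae and 18th in control blastocysts. It was 9th in split morulae and 10th in split blastocysts. Its mean TPM was 0.0493 times that of Nanog, the homeobox factor of the epiblast, in control morulae and 0.0404 times in control blastocysts, against 0.239 and 0.291 times in the split groups. Nanog itself was at 332 ± 57.9 TPM in control morulae and 283 ± 222 TPM in split morulae, and at 256 ± 29.8 TPM in control and 236 ± 64.6 TPM in split blastocysts. Nanog did not pass the test between split and control embryos at either stage (edgeR adjusted p = 0.90 at the morula and higher than that at the blastocyst).

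**Figure D2:**
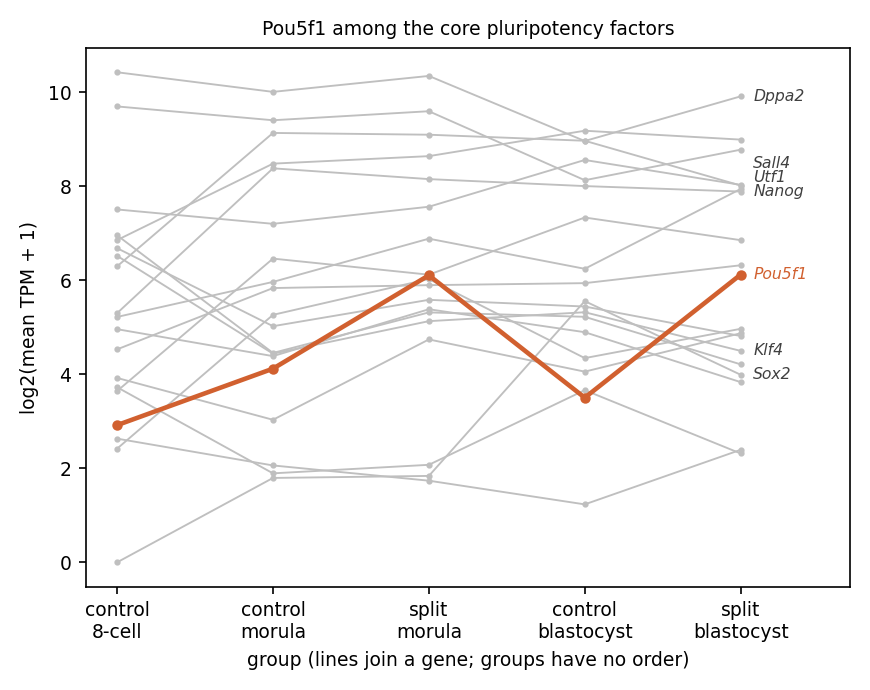
Mean level of Pou5f1 (orange) and 18 other core pluripotency factors (grey) by group, as log2(mean TPM + 1); lines join the groups of a gene. Pou5f1 is 9th and 10th of 19 in split morulae and split blastocysts and between 15th and 18th in the control groups.

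A network of genes around Pou5f1 was then followed: other core pluripotency factors, textbook Oct4 targets, regulators of the gene, protein partners of Oct4 and enzymes that modify Oct4. It held 95 genes, 91 of which were tested with edgeR's quasi-likelihood test, and a gene was said to rise or fall at a Benjamini-Hochberg adjusted p under 0.05 over all genes tested. In split against control morulae none of the 91 passed, where 0.126% of all genes did (0.0693% higher, 0.0567% lower). At an unadjusted p under 0.05 there were 18, and the share of all genes at this threshold was not taken. DESeq2 called 8 (6 higher, 2 lower), where it called 4.46% of the genes to which it gave an adjusted p. In split against control blastocysts 8 passed (8.79%), 6 higher and 2 lower, against 4.74% of all genes (3.42% higher, 1.32% lower). Without split blastocyst pair 3 the count was 5, all higher, where 2.84% of all genes were called. Of the 74 members given an adjusted p, DESeq2 called 8 higher and 10 lower, and of all genes given one it called 20.3%. A fit of only these 2 groups called 10 higher and 15 lower, where it called 12.8% of all genes.

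Of the 18 core factors, 3 rose in split blastocysts. Utf1, an embryonic chromatin factor and a classical Oct4-Sox2 target, was at 93.6, 70.5 and 183 CPM in the split pairs and at 17.9, 24.7 and 44.6 CPM in the control blastocysts. The groups did not overlap, which adds no support to a call made on the same values. The log2 difference was 1.99 (edgeR adjusted p = 0.0043). The split pair at 183 CPM was far above the other 2, and the call was lost without it (log2 difference 1.498). Dppa2 and Dppa4 encode a pair of DNA-binding proteins that prime embryonic genes. Dppa2 was at 842, 1138 and 726 CPM in split and 412, 429 and 336 CPM in control blastocysts, a log2 difference of 1.2 (adjusted p = 0.0051). Dppa4 was at 288, 308 and 237 CPM against 138, 167 and 143 CPM, a log2 difference of 0.90 (adjusted p = 0.0037). Both had fallen from control morulae to control blastocysts, by 1.5 and 1.74 on the log2 scale (adjusted p = 0.00013 and 6.2e-07), and the split blastocysts lay between these control levels, with 902 and 278 CPM on average. The remaining 15 core factors did not pass at either stage. Sox2, the partner of Oct4 on DNA, was at 11.8 CPM in split and 30.4 CPM in control blastocysts (adjusted p = 0.75), Nanog at 205 and 185 CPM, and Sall4, a zinc finger activator of Pou5f1, at 544 and 890 CPM. The median log2 difference of the core factors was 0.09 at the morula and -0.10 at the blastocyst, against 0 for all genes at both.

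Across the 18 units the core factor most like Pou5f1 in log2 CPM was Utf1 (Pearson's r = 0.76), followed by Lin28a, an RNA-binding protein of stem cells (0.69), and Zfp42 or Rex1 (0.62). Nanog was at 0.49, Sox2 at 0.33 and Dppa2 at 0.05, and the lowest were Klf2 (-0.47) and Nr5a2 (-0.48). These coefficients are descriptions over units that share libraries, stage and split status, and the genes at the extremes were named after their values were seen.

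Of the 18 textbook Oct4 targets, Utf1 rose and Rif1 fell in split blastocysts. Rif1, which guides replication timing and telomere repair, was at 123, 136 and 120 CPM in split pairs and 286, 269 and 228 CPM in control blastocysts. The log2 difference was -1.05 (edgeR adjusted p = 0.013). The groups did not overlap, which adds no support to a call made on the same values. The call was lost when split pair 1, split pair 3 or control blastocyst 1 was left out, with log2 differences of -1.03, -1.01 and -0.98. Fgf4, the growth factor that the epiblast sends to the primitive endoderm, did not pass, at 59.1 CPM in split and 73.4 CPM in control blastocysts, nor did Zfp42 at 365 and 351 CPM. The median log2 difference over the targets was -0.16 at the morula and -0.07 at the blastocyst. In control embryos this list had moved with stage: 9 of 18 rose and 4 fell from 8-cell embryo to morula, where 14.3% of all genes rose and 10.7% fell.

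None of the 24 tested regulators of the Pou5f1 gene passed in split against control embryos of either stage. Of all genes, 0.126% passed at the morula and 4.74% at the blastocyst, so few or no calls would fall in 24 genes. Nr5a2, the nuclear receptor that binds the promoter, was at 111 CPM in split and 82.4 CPM in control morulae (adjusted p = 0.47), and at 61.9 and 80.1 CPM at the blastocyst (adjusted p = 0.69). Nr6a1, a receptor that represses Pou5f1, was at 43.1 and 21.5 CPM at the morula (adjusted p = 0.34) and at 19.9 and 17.9 CPM at the blastocyst. Nr5a1 and Nr2f1 were too low to be tested. The median log2 difference of the list was 0.15 at the morula and -0.41 at the blastocyst, against 0 for all genes. With the 1 member at 0 in a group set to its bound (3 counts over the group) the morula value was 0.08.

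Of the 39 tested partners of the Oct4 protein, 2 rose and 1 fell in split blastocysts. Hdac1, a histone deacetylase of the NuRD complex, was at 123, 104 and 110 CPM in split and 30.5, 22.9 and 46.1 CPM in control blastocysts, a log2 difference of 1.76 (adjusted p = 0.0034). Rbbp7, a histone chaperone of the same complex, was at 1091, 748 and 947 CPM against 390, 364 and 356 CPM, a log2 difference of 1.33 (adjusted p = 0.0086). Neither gene's groups overlapped, which adds no support to calls made on the same values. The Rbbp7 call was lost with limma on log2(TPM + 1), at a log2 difference of 1.06. Both had fallen from control morula to control blastocyst, Hdac1 by 1.61 and Rbbp7 by 2.23 on the log2 scale (adjusted p = 0.0016 and 1.4e-05). The partner that fell was Rif1, which is also on the target list. The median log2 difference over the partners was 0.28 at the morula and -0.50 at the blastocyst. Mta2, another NuRD subunit, came nearest to a call at the morula, at 61.5 CPM in split and 15.4 CPM in control morulae (log2 difference 2.00, adjusted p = 0.050) and was named after its value was seen. Other NuRD genes on the list did not pass at the blastocyst, and were also named after their values were seen. Their log2 differences there were -0.31 (Hdac2), -0.21 (Chd4), -0.27 (Mbd3), -0.14 (Gatad2a), -1.10 (Gatad2b), 0.03 (Rbbp4), 0.68 (Mta1) and 0.86 (Mta2).

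Of the 8 enzymes that modify Oct4, both members that passed in split blastocysts are ubiquitin ligases, and they went in opposite directions. Stub1, a chaperone-linked ligase, rose from 25.7, 20.2 and 35.8 CPM in control blastocysts to 113, 105 and 117 CPM in split pairs, a log2 difference of 2.03 (adjusted p = 0.0025). Itch fell from 121, 82.8 and 99.2 CPM to 49.9, 57.9 and 44.0 CPM, a log2 difference of -0.997 (adjusted p = 0.021). The Itch call was lost on leaving out split pair 1 or 3, or control blastocyst 1 or 3, with log2 differences of -0.99, -0.91, -0.85 and -1.01. Wwp2, the ligase best known for Oct4, was at 33.9 CPM in split and 34.7 CPM in control blastocysts.

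**Figure D3:**
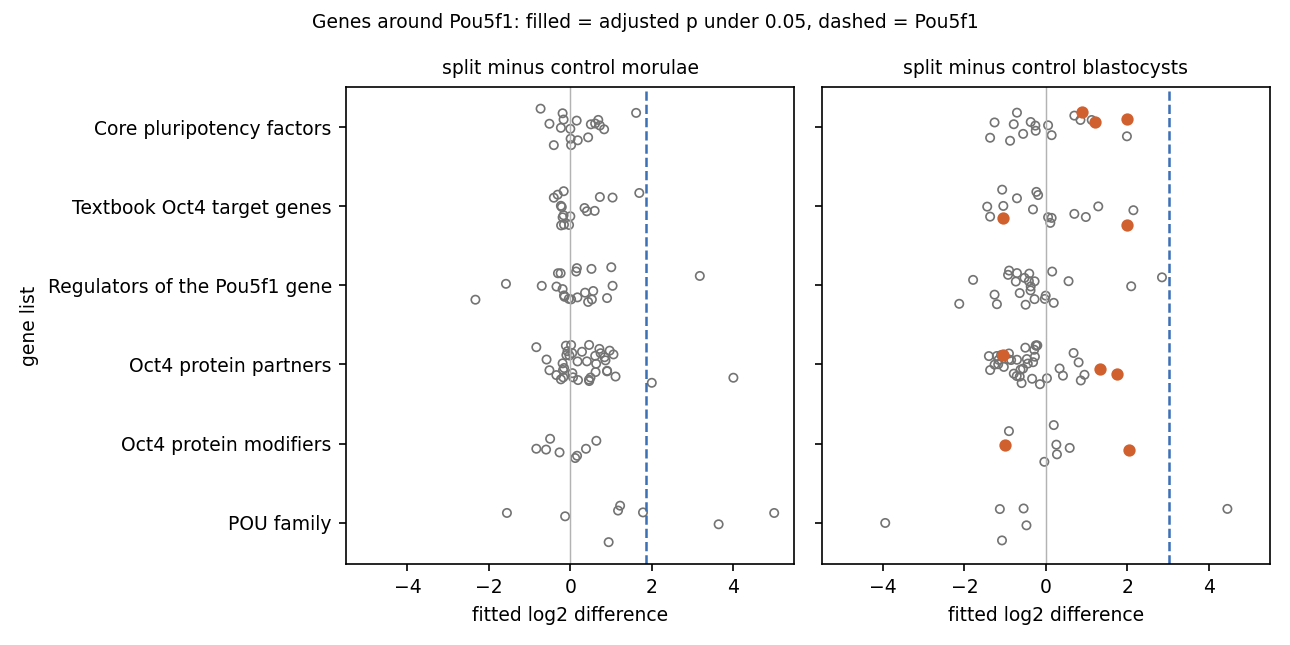
Fitted log2 difference (split minus control) of each tested member of 6 gene lists at the morula (left) and the blastocyst (right); filled points passed at an adjusted p under 0.05, the dashed line is Pou5f1, and members with a group at 0 CPM in every unit are not drawn. No point is filled at the morula; 8 genes are filled at the blastocyst, all nearer to 0 than Pou5f1 (3.02), and Utf1 and Rif1 are each drawn on 2 lists.

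The split difference of 3 network genes differed between the stages, all in the direction opposite to the fitted value of Pou5f1, where 1.64% of all genes passed the test of this difference (1.37% higher, 0.265% lower). Kdm3a, a histone demethylase and Oct4 target, was at 35.8 CPM in control and 73.3 CPM in split morulae, but at 60.4 and 28.7 CPM at the blastocyst (log2 difference of differences -2.11, adjusted p = 0.014). Rif1 (-1.46, adjusted p = 0.024) and Smarca4, the BAF complex ATPase (-1.54, adjusted p = 0.033), behaved alike. Of the split embryos themselves, 9 of the 91 network genes fell from morula to blastocyst and none rose, against 2.95% of all genes lower and 1.22% higher (4.17% in all). At an unadjusted p under 0.05 there were 27 in either direction, again without a share of all genes.

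In control embryos the network changed with stage. From 8-cell embryo to morula, where 24.9% of all genes changed, 16 of 91 rose (17.6%, against 14.3% of all genes) and 21 fell (23.1%, against 10.7%). Nanog went from 40.2 to 329 CPM (adjusted p = 0.0043) and Sall4 from 199 to 1373 CPM (adjusted p = 2.6e-08), whereas Esrrb, an orphan nuclear receptor, fell from 34.3 to 7.27 CPM (adjusted p = 0.042). Sox2 had 0 counts in all 4 control 8-cell embryos, which allows at most 0.0885 to 0.125 CPM per library, and rose to 2.26 CPM in control morulae (adjusted p = 0.00063). From morula to blastocyst, where 10.6% of all genes changed, 8 rose (8.79%, against 3.12%) and 10 fell (10.99%, against 7.46%), whereas limma on log2(TPM + 1) called 27 higher and 8 lower, and 22.5% of all genes. Both stage steps share their control groups with the split comparisons.

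The lineage markers that oppose or follow Oct4 did not pass between split and control embryos. Of all genes, 0.126% were called at the morula and 4.74% at the blastocyst. Lists this short would hold few calls or none at these shares. None of 14 trophectoderm and none of 11 tested primitive endoderm genes was called at either stage. Of these, 4 and 3 had an unadjusted p under 0.05 at the morula, and 2 and 1 at the blastocyst, with no share of all genes taken. Cdx2 was at 13.3 CPM in split and 1.47 CPM in control morulae (adjusted p = 0.34), and at 24.1 and 16.4 CPM at the blastocyst (adjusted p = 0.98). Eomes was at 29.6 CPM in split and 56.3 CPM in control blastocysts, Gata3 at 806 and 754 CPM and Gata2 at 20.6 and 29.1 CPM. All 14 trophectoderm genes had a count in each group at these stages. In control morulae Gata2 and Elf5 averaged 0.0133 CPM each, below 3 counts over the group (0.0386 CPM). Summed over the 14 genes, the level was 5922 to 8742 CPM in split and 3114 to 4254 CPM in control blastocysts, and 706 to 2699 CPM against 724 to 1362 CPM at the morula. At the blastocyst most of the gap in this sum lay in the keratins Krt8 (1766 CPM in split, 610 CPM in control) and Krt18 (2603 and 824 CPM), named after their values were seen, while Eomes, Gata2 and Tfap2a (20.3 and 80.8 CPM) had lower values in split blastocysts. The 12 primitive endoderm genes summed to 679 to 965 CPM in split and 604 to 644 CPM in control blastocysts, with Sox7 at 0 in both, and to 252 to 539 CPM against 382 to 485 CPM at the morula. The part of this cell makeup in the level of Pou5f1 was not tested.

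Within the POU family, 10 of the 15 other genes on the list were tested. Against 0.126% of all genes called at the morula and 4.74% at the blastocyst, none of these 10 passed between split and control embryos. Per gene length all were far below Pou5f1 in split embryos: Pou4f1 averaged 5.60 TPM in split morulae and 0.0653 TPM in split blastocysts, Pou6f1 5.00 and 0.610 TPM, Pou2f3 2.17 and 3.64 TPM and Pou2f1, or Oct1, 1.02 and 1.91 TPM. In control blastocysts Pou2f3 reached 9.22 ± 4.03 TPM, a level near the 10.3 ± 5.21 TPM of Pou5f1. Pou5f2, the other gene of the same POU class, averaged at most 1.09 CPM in any group. The only family call in any of the 6 comparisons was for Pou2af1, a cofactor of octamer-binding factors on this list. It fell from 14.0 to 0.145 CPM between control 8-cell embryos and control morulae (adjusted p = 0.016).

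The genes whose levels most resembled Pou5f1 were ranked by Pearson's r of log2 CPM over the 18 units. Genes with Gm, Rik, clone or -ps symbols were left out, and the 6329 other tested genes whose log2 CPM averaged 3 or more were ranked. The median r was 0.08, and 113 genes reached 0.8. Among the first 10 were Pym1 (0.93), Polr2m (0.93), Wdr18 (0.92), Pfn1 (0.92), Anapc5 (0.92), Glmp (0.91), Itpa (0.91), Tex19.1 (0.90) and Psmd13 (0.90). Of these Tex19.1 is known from pluripotent cells and germ cells, Pfn1 is the actin-binding profilin, Anapc5 a subunit of the anaphase-promoting complex and Polr2m a subunit of an RNA polymerase II form. None of the network genes was among the 10. Their range was smaller than that of Pou5f1: Wdr18 went from 122 ± 36.6 CPM in control 8-cell embryos (n = 4) to 559 ± 7.21 CPM in split blastocysts (n = 3 pairs), and Tex19.1 from 43.1 ± 21.3 CPM in control 8-cell embryos to 311 ± 159 CPM in split morulae (n = 3 pairs). Wdr18 and Psmd13 were the 2 of the 10 with no overlap of split and control embryos. Only 3 of the 10 were kept with Spearman's rho in place of Pearson's r, and 2 without the control blastocysts.

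**Figure D4:**
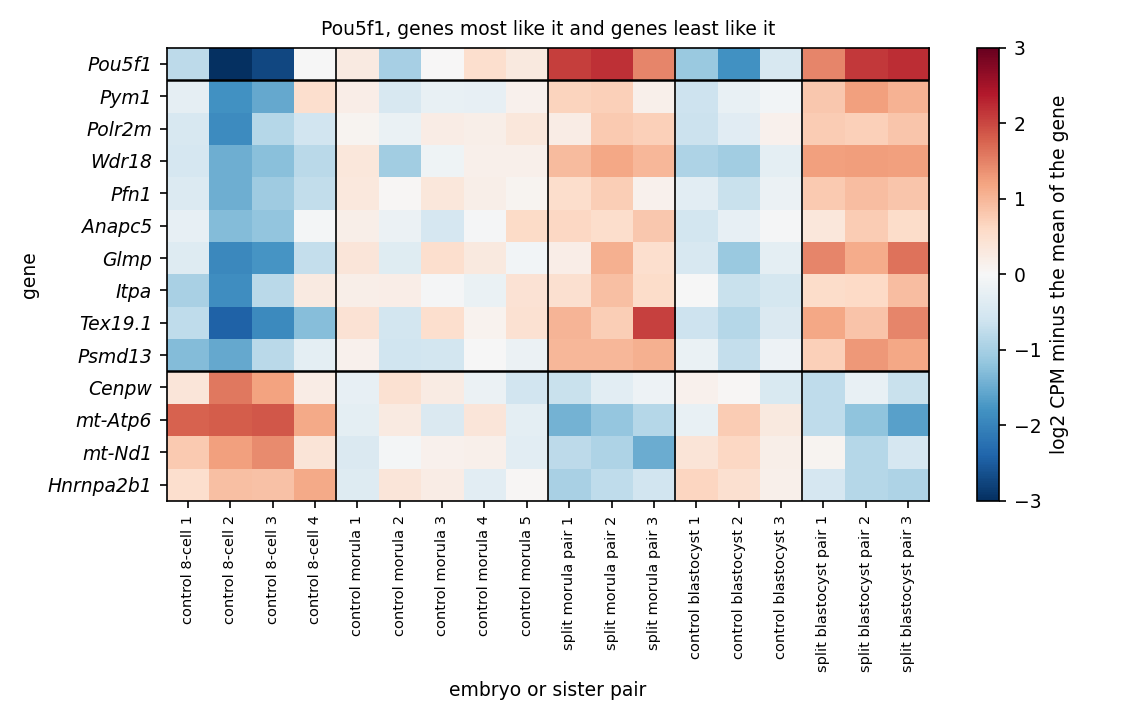
Log2 CPM minus the mean of each gene over the 18 units (colour, from -3 to 3, values beyond shown at the limit), for Pou5f1 (top), 9 of the 10 genes most like it and 4 of the 5 least like it; columns are control embryos or split sister pairs by group. Pou5f1 and the 9 genes are low in control 8-cell embryos 2 and 3 and mostly high in split pairs, and the bottom 4 run the other way.

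Among the 5 least like genes were Cenpw (-0.86), a kinetochore protein, the mitochondrially encoded mt-Atp6 (-0.86) and mt-Nd1 (-0.86), and the RNA-binding protein Hnrnpa2b1 (-0.85). mt-Nd1 averaged 4959 CPM in control and 2584 CPM in split morulae, and 6975 and 4072 CPM at the blastocyst, so that the mitochondrial transcripts lay at the far end of the same ordering of embryos. These coefficients rest on 18 points that share stage, split status and library, and are descriptions.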

How the data were processed

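Single-embryo Smart-seq2 libraries of 24 mouse embryos were deposited as 2 tables. The authors' raw count table holds read counts per gene symbol, and the deposited TPM table holds TPM computed by the authors for a subset of genes. The submitters' processing notes name the build GRCm39 and the tools HISAT2 and featureCounts, with cutadapt, FastQC, MultiQC and edgeR. Versions, annotation and strand setting are not given in the sources used here.

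Sisters were summed to 1 unit (18 units), since they share a 2-cell embryo. Genes were filtered with filterByExpr (15875 of 37229 kept), scaled with edgeR's TMM method and tested by its robust quasi-likelihood approach, two-sided, in 1 model that held all 5 groups (13 residual degrees of freedom). Adjustment was over all genes tested. Log2 CPM used a prior count of 2. The fitting code was tested on simulated data. The tools were DESeq2 1.42.0, limma 3.58.1 and edgeR 4.0.16 under R 4.3.3. Nothing in the labels says that replicates came from separate matings or cultures, so the p-values cover only the spread among these units, which may be technical. Libraries ran from 11.3 M to 38.5 M counts and carry no molecular identifiers, so intervals and floors (3 counts) cover counting error only.

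The gene, the gene lists and the tests were chosen with earlier results of these data known. Named genes were Pou5f1, list members called in a split comparison, otherwise up to 4 per list in list order, tested POU genes, 3 neighbours on each side, and the 10 genes most and 5 least like Pou5f1. Some genes that this rule names are not reported here. Others are said to have been named after their values were seen or stand in a count of genes. RefSeq promoters are of GRCm38.p6, another build than that of the files, so only the promoter carries coordinates. Alternatives were DESeq2, its size factors in edgeR, no filter, each embryo as a sample, only the compared groups, limma on log2(TPM + 1), a replicate block, and each control embryo or pair left out.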

Additional observations from a re-analysis of the deposited data

Results flagged for a closer look

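In 36 combinations of a gene (Pou5f1 and the 8 network genes called in split blastocysts) and a group of 4 to 6 embryos, 3 had an embryo far from the others of its group. Chance gives about 1 in 20 for independent embryos, which the sisters in the split groups are not. None of the 3 was for Pou5f1. Itch was at 121 CPM in control morula 4, against 83.8 CPM in the next embryo. Rbbp7 was at 2487 CPM in the split morula from blastomere 1 of pair 1, against 1551 CPM in the next. Stub1 was at 30.4 CPM in control morula 2, the control morula that also had the least Pou5f1, against 43.3 CPM in the next.

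The split difference changed between the stages for 3 network genes, by edgeR's test of the difference itself. The log2 value was -2.11 ± 0.44 for Kdm3a (adjusted p = 0.014; 1.04 at the morula and -1.07 at the blastocyst). It was -1.46 ± 0.33 for Rif1 (adjusted p = 0.024; 0.41 and -1.05), and -1.54 ± 0.37 for Smarca4 (adjusted p = 0.033; 0.90 and -0.64). The 3 genes share units, and what moved them was not tested.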

How the results depend on the processing

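The difference in Pou5f1 kept its sign under every alternative run for the control stages and for split against control embryos. At the morula it was 1.66 to 2.04 (log2) on leaving out each embryo or pair, and 2.42 with the replicate block, which was the one value to move by more than 1 SD. At the blastocyst it was 2.75 to 3.42 on leaving one out, and between the split groups -0.16 to 0.23, on both sides of 0. Leaving one out gave 0.91 to 2.09 for the step from control 8-cell embryo to morula, -1.54 to -0.87 for morula to blastocyst and 0.90 to 1.57 for the gap between the split differences. The count of network genes called at the morula was 0 in the reported fit. It was 8 with DESeq2 (4.46% of genes with an adjusted p called) and 1 with DESeq2's size factors in edgeR (0.151% of all genes). It was 1 with no filter (0.289%), 4 with each embryo as a sample (1.13%) and 1 with limma on log2(TPM + 1) (0.25%). It was 0 to 2 on leaving one out (0.0252 to 0.353%). At the blastocyst the count of 8 became 18 of 74 members with DESeq2 (20.3% of genes with an adjusted p). It became 25 with only the groups compared (12.8% of all genes) and 5 to 9 on leaving one out (2.60 to 3.53%). All 8 genes were called in the first 2 of these. From control morula to control blastocyst the count of 18 became 35 with limma on log2(TPM + 1) (22.5% of all genes), 27 of them higher. The cause of these changes was not tested.

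Replicate numbers shared between groups mark no common litter or batch in the labels, and samples with the same number did not deviate together (r between -0.03 and 0.08). With the replicate block the network counts of 37, 18, 0 and 8 (control steps, then split comparisons) were 37 (34 of them shared), 13, 0 and 8. In these comparisons 20.5%, 8.33%, 0.126% and 4.28% of all genes were called with the block. In that fit the control morula to blastocyst difference of Pou5f1 was -0.68 and the gap between its split differences 0.74. For the sisters' likeness p ran from 0.333 to 0.733 over all alternatives. Pou5f1 rested on as few as 14 counts in a control 8-cell embryo and 63 in a control blastocyst, and the control 8-cell embryos spanned 29.6-fold.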
